A study of Homo sapiens with 6 samples.

Results

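The aldo-keto reductases are enzymes that use NADPH to reduce aldehydes and ketones, among them steroids, prostaglandins, retinaldehyde and the reactive carbonyls left by lipid oxidation. Several human members are induced through the antioxidant transcription factor NRF2, and AKR1B10 and the AKR1C enzymes are known for high expression in many non-small cell lung cancers. The member list held 7 genes, AKR1A1, AKR1B1, AKR1B10, AKR1C1, AKR1C2, AKR1C3 and AKR7A2. Members were taken as every probe set, the group of oligonucleotides that gives 1 signal on an Affymetrix array, whose platform annotation names 1 of these genes. That gave 13 of 54675 probe sets, for 5 of the 7 genes. AKR1C1 had 5 probe sets, AKR1C2 had 3, AKR7A2 had 2, and AKR1C3 and AKR1B10 had 1 each, while 1 further probe set was annotated to both AKR1C1 and AKR1C2. The annotation used here names 0 probe sets for AKR1A1 and 0 for AKR1B1, so these genes were not analysed here.

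The arrays hold total RNA of CL1-5, the highly invasive subline of the human lung adenocarcinoma line CL1, and of CL1-0, its poorly invasive subline. Both were grown in RPMI medium with serum and antibiotics and received no further treatment according to the labels. Each line was measured on 3 one-colour arrays labelled as biological repeats, so p-values measure the spread between these arrays, and each degree of invasiveness is represented by 1 line. The arrays measure the pooled RNA of a culture, in which fewer expressing cells and less transcript per cell cannot be told apart.

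The median signal of an array was 30.2 to 30.9, and its 40th percentile, used as a stand-in for background, 19.5 to 20.3. Correlations across probe sets, which are not independent replicates, ran from 0.984 to 0.996 for arrays of the same line and from 0.869 to 0.884 for arrays of different lines. The log2 ratio of 3′ to 5′ control probe sets, which rises as RNA degrades, averaged 0.54 ± 0.32 in CL1-5 and 0.71 ± 0.40 in CL1-0 for ACTB (SD, n = 3 each; two-sided exact permutation test, p = 0.5). For GAPDH it averaged 0.08 ± 0.10 in CL1-5 and 0.16 ± 0.09 in CL1-0 (same test, exact p = 0.4). With 3 arrays per line this test cannot go below 0.1. Within repeat numbers the ratio was lower in CL1-5 in 3 of 3 repeats for both genes, with differences of -0.22, -0.04 and -0.26 for ACTB and -0.04, -0.13 and -0.06 for GAPDH, and the part of this in the results was not tested. Of 10 lung and epithelial markers with a probe set, 9 were tested. KRT18 and KRT8 were higher in CL1-5, EPCAM was lower and 6 were not called. EPCAM was at or under the 40th percentile on every CL1-5 array and averaged 29.3 ± 3.1 signal units in CL1-0 (SD, n = 3). Its decrease is thus given only as at least 1.35-fold. The summed signal of the list ran from 4713 to 5558 in CL1-5 and from 455 to 495 in CL1-0. Most of the CL1-5 sum was KRT18, which averaged 4222 ± 417 signal units in CL1-5 and 46.5 ± 7.9 in CL1-0 (SD, n = 3 each). The lung markers NKX2-1, NAPSA and SFTPB were not called, NKX2-1, close to background, averaging 25.0 ± 0.50 signal units in CL1-5 and 26.9 ± 3.30 in CL1-0 (SD, n = 3 each). Of 11 markers of blood, endothelial, stromal and liver cells with a probe set, 4 lay at or under the 40th percentile on every array, and 1, the endothelial adhesion gene PECAM1, was higher in CL1-5 (log2 fold change 1.11, SE 0.11). The list summed to 303 to 318 in CL1-5 and 238 to 276 in CL1-0, and the part of other cell types in the results was not tested.

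In the RefSeq annotation of GRCh38.p14 the genes AKR1C1, AKR1C2 and AKR1C3 stand next to one another on chromosome 10, with AKR1E2 on one side and AKR1C8 and AKR1C4 on the other, and only noncoding genes and the pseudogene AKR1C6P between these coding genes. The 3 enzymes are close paralogs. The bases around their start sites are shown because each gene had a tested probe set that was lower in the highly invasive subline. A further reason is that AKR1C1 and AKR1C2 are hard to tell apart by sequence. Each run reads 5′ to 3′ on the strand of the gene and covers 250 bases before the start site and 50 after it. Capitals mark the CCAAT box, searched as CCAAT and as its reverse complement ATTGG. The sequences are those of RefSeq for AKR1C1 at chr10:4963165-4963464 (plus strand), AKR1C2 at chr10:5003808-5004107 (minus strand) and AKR1C3 at chr10:5048531-5048830 (plus strand).
AKR1C1: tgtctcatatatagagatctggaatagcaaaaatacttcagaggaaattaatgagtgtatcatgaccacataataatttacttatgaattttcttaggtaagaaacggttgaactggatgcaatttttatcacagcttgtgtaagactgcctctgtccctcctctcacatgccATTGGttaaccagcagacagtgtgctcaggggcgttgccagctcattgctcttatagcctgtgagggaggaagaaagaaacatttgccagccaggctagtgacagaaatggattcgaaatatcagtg
AKR1C2: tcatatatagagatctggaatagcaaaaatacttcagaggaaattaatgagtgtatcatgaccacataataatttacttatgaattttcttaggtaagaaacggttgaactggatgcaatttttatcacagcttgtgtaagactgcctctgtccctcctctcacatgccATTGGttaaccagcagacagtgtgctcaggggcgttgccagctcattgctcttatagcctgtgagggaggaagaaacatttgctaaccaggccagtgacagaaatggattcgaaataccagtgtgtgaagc
AKR1C3: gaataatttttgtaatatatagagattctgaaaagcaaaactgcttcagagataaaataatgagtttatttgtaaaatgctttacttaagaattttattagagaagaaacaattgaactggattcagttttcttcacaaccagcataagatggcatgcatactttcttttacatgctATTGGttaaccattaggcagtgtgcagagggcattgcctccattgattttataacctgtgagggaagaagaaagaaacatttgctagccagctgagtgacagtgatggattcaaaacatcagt

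Aligned over 296 columns, the AKR1C1 and AKR1C2 sequences were 97.3% identical, with 4 substitutions and 4 gap columns. AKR1C3 was 76.9% identical to AKR1C1 and 75.2% to AKR1C2. A second AKR1C3 start site in the RefSeq table was 75.3% identical to each of them. Every one of these windows held 1 reverse CCAAT box. Between the box and the start site lay 72 bases in AKR1C1, 76 in AKR1C2 and 68 in the AKR1C3 window shown. Of 35116 promoter windows of this length, 34.6% held a CCAAT box on either strand. The core of the antioxidant response element, TGACNNNGC, was searched on both strands, as was the AP-1 site TGANTCA, which can overlap it. Neither was found in the windows of AKR1C1, AKR1C2 or AKR1C3. The core was found in 13.3% of all windows and the AP-1 site in 7.71%. The window of AKR7A2 held 3 matches to the core on either strand and 0 CCAAT boxes. These matches describe letters in a window of 300 bases and say nothing of whether a factor binds there or elsewhere.

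Setting CL1-5 against CL1-0 asks how 2 sublines of 1 tumour line that differ in invasiveness differ in their transcripts. The 6 tested AKR1C probe sets were lower in CL1-5, 5 of them by 2.83-fold to 5.10-fold and 1, the AKR1C1 probe set 217626_at, by 1.20-fold, whereas AKR7A2 did not pass the test and AKR1B10 was dim in both lines. A probe set was tested where at least 3 of its 6 signals were above the 40th percentile of their arrays, which 8 of the 13 member probe sets did. These 8 exceeded it on all 6 arrays, so none passed through 1 line alone. By limma's moderated test on log2(signal + 6.85), adjusted by the Benjamini-Hochberg method over 33777 probe sets at a threshold of 0.05, 6 of the 8 were lower in CL1-5, 0 were higher and 2 were not called. Of all probe sets tested, 24.6% were called lower and 19.8% higher, 44.4% in all. On 5 of the 8 the decrease was at least 2-fold and called, against 6.91% of all. The median log2 fold change over the 8 was -1.64, and over all tested probe sets -0.04. The 8 are not independent, since 6 of them belong to the AKR1C paralogs.

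**Figure D1:**
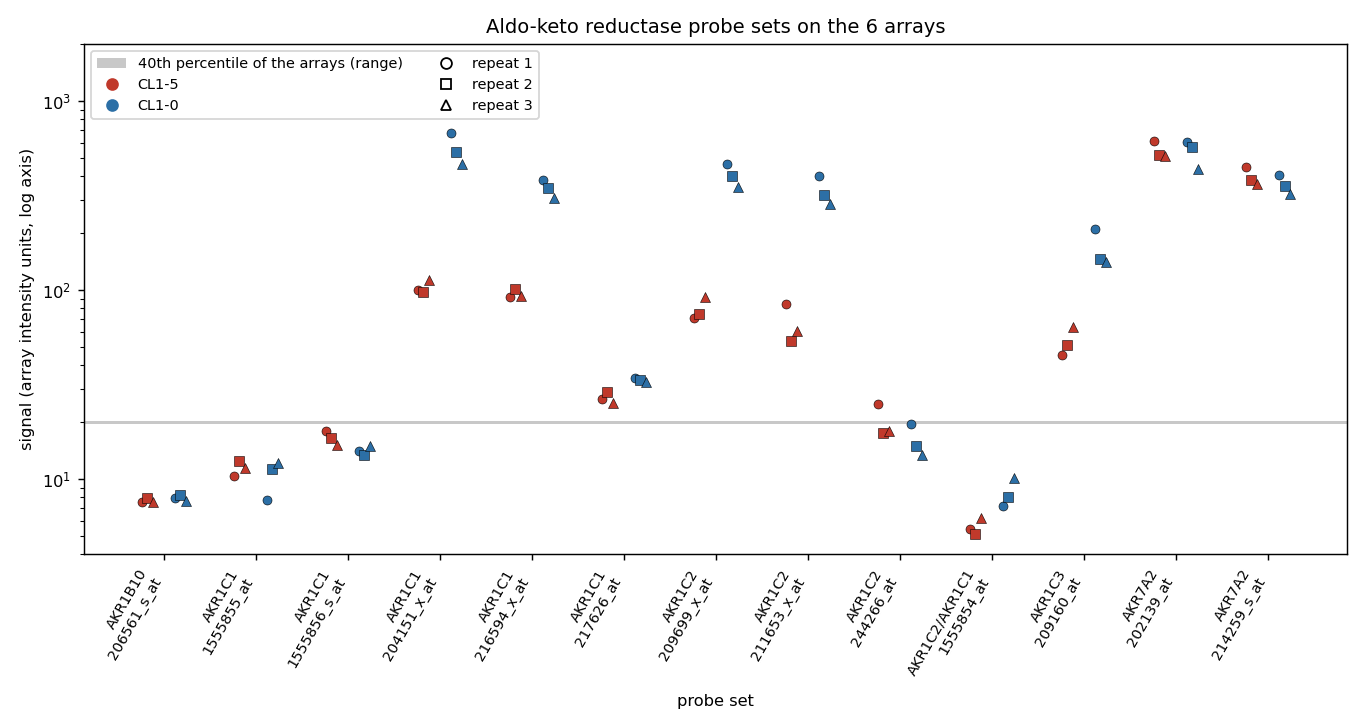
Signal of the 13 aldo-keto reductase probe sets on each array, on a log axis in array intensity units, with CL1-5 to the left of CL1-0 and 1 point per array. The grey band is the range of the arrays' 40th percentiles, 19.5 to 20.3, and 5 probe sets lie around or under it while 5 AKR1C probe sets part the lines.

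AKR1C1, a hydroxysteroid dehydrogenase that inactivates progesterone, was brightest through the probe set 204151_x_at. Its signal was 99.4, 97.6 and 113.0 in CL1-5 repeats 1, 2 and 3, against 681, 539 and 463 in CL1-0 repeats 1, 2 and 3. Every CL1-5 array lay below every CL1-0 array, as it did for 29.6% of all tested probe sets, while for 24% every CL1-5 array lay above every CL1-0 array. The log2 fold change was -2.35 (SE 0.15, adjusted p = 8.9e-06 by limma), a 5.10-fold decrease on the scale with the added constant.

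A further AKR1C1 probe set, 216594_x_at, read 91.6, 101.1 and 93.0 in CL1-5 and 384, 347 and 308 in CL1-0. The lines were apart again, with a log2 fold change of -1.79 (SE 0.11, adjusted p = 8.2e-06 by limma). The decrease was smaller than on 204151_x_at in these arrays. The difference between their log2 fold changes was -0.57, and the per-array ratios of the 2 probe sets did not overlap between the lines (exact permutation p = 0.1, the smallest possible, and 0.16 after adjustment over 16 pairs of probe sets).

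The AKR1C1 probe set 217626_at, whose name lacks the suffix x, gave another picture. It read 26.6, 29.0 and 25.2 in CL1-5, against 34.3, 33.5 and 32.8 in CL1-0, not far above the 40th percentile on any array. The lines did not overlap, but the log2 fold change was -0.26 (SE 0.09, adjusted p = 0.043 by limma). The log2 fold change of 204151_x_at minus this one was -2.09 and that of 216594_x_at minus this one -1.53, each again with an exact permutation p of 0.1. This call was lost when any 1 array was left out (adjusted p between 0.062 and 0.13) and with no filter on low signals (0.083). If a gene is represented by its brightest probe set without the suffix x, AKR1C1 is this probe set, and the log2 fold change of the gene is -0.26 in place of -2.35.

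The suffix x marks probe sets in which some oligonucleotides also match other transcripts. All 4 tested AKR1C1 and AKR1C2 probe sets with decreases of at least 2-fold carry it. Of the 5 probe sets for these genes without it, the shared one included, 217626_at was the 1 that was tested. How much of each signal comes from AKR1C1, AKR1C2 or AKR1C3 was not tested, so the values of single paralogs are uncertain.

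AKR1C2, a hydroxysteroid dehydrogenase that inactivates dihydrotestosterone, was read through 209699_x_at at 70.9, 74.6 and 91.9 signal units in CL1-5, against 462, 403 and 351 in CL1-0. Through 211653_x_at it read 84.7, 54.0 and 60.7 in CL1-5 and 401, 317 and 284 in CL1-0. On both probe sets the lines were far apart, and the lowest CL1-0 array was more than 3 times as bright as the highest CL1-5 array. The log2 fold changes were -2.26 (SE 0.14) and -2.22 (SE 0.19), with adjusted p of 7.8e-06 and 4.1e-05 by limma. The first minus the second was -0.04, and AKR1C1 on 204151_x_at minus each of them was -0.09 and -0.13, with exact permutation p between 0.4 and 1. In these 3 pairs the ratios overlapped between the lines, which does not show that the changes were equal.

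AKR1C3, which makes testosterone from androstenedione and prostaglandin F from prostaglandins D and H, was measured through 209160_at, a probe set without the suffix x. Its signal was 45.6, 51.0 and 63.9 in CL1-5, against 210, 146 and 140 in CL1-0. The groups did not overlap, and the log2 fold change was -1.50 (SE 0.18, adjusted p = 3.0e-04 by limma), a 2.83-fold decrease. The decrease was the smaller one in 3 pairs, AKR1C1 on 204151_x_at minus AKR1C3 being -0.85 and the AKR1C2 probe sets minus AKR1C3 -0.76 and -0.72. The ratios did not overlap between the lines in these pairs, each with an exact permutation p of 0.1 and 0.16 after adjustment. For AKR1C1 on 216594_x_at minus AKR1C3 the difference was -0.28, with overlapping ratios and an exact permutation p of 0.3.

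**Figure D2:**
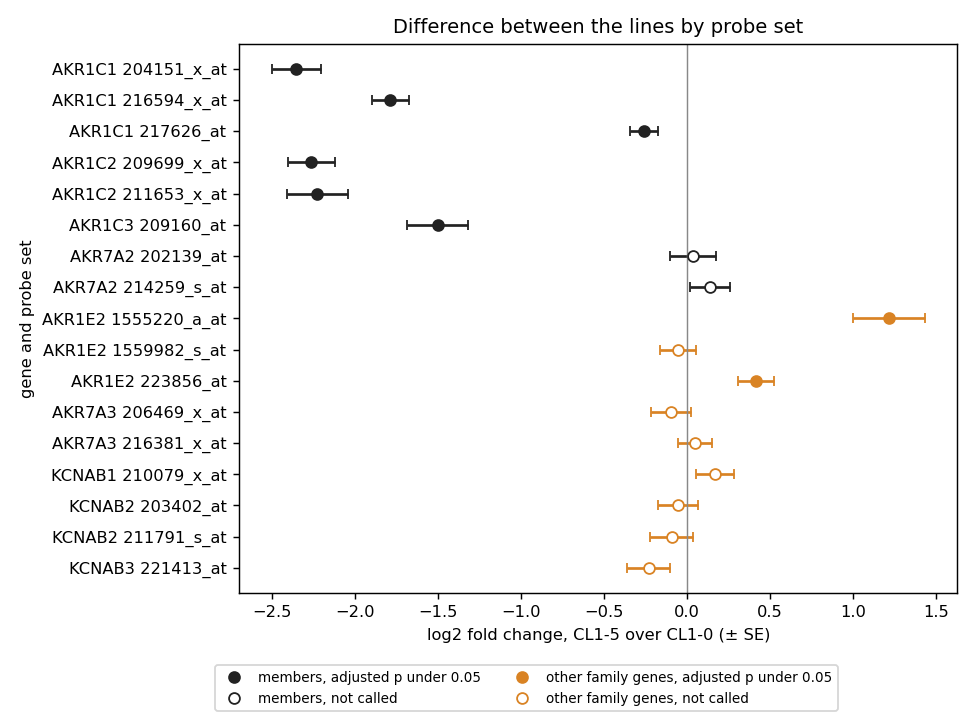
Log2 fold change of CL1-5 over CL1-0 for each tested probe set of the members (black) and of the other family genes (orange), with bars of 1 SE and filled points for an adjusted p under 0.05. The AKR1C probe sets run from -2.35 to -0.26, AKR7A2 lies at 0.04 and 0.14, and AKR1E2 has the 2 called increases.

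The remaining AKR1C probe sets were dim. Those for AKR1C1, 1555855_at and 1555856_s_at, averaged 11.4 ± 1.02 and 16.6 ± 1.40 signal units in CL1-5, against 10.4 ± 2.34 and 14.1 ± 0.84 in CL1-0 (SD, n = 3 each), under the 40th percentile on every array. The AKR1C2 probe set 244266_at read 25.0, 17.6 and 17.9 in CL1-5 and 19.5, 14.9 and 13.4 in CL1-0, and exceeded that percentile on 1 array of each line. The probe set annotated to both genes, 1555854_at, read 5.47, 5.11 and 6.22 in CL1-5, against 7.18, 8.03 and 10.2 in CL1-0. On it every CL1-5 array lay below every CL1-0 array, at signals near the bottom of the arrays. The AKR1C1 probe set 1555856_s_at went the other way, with every CL1-5 array above every CL1-0 array. The lines overlapped on 244266_at, which was higher in CL1-5 within each repeat number, and on 1555855_at. With the filter removed, the adjusted p of 1555854_at was 0.015 by limma, and the other 3 did not pass. At signals around or under the 40th percentile the size of a difference cannot be read, so these probe sets neither show nor exclude the decrease seen on the brighter ones.

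AKR1B10, a reductase of retinaldehyde and other aldehydes, was read through 206561_s_at at 7.61, 7.95 and 7.54 signal units in CL1-5 and at 7.94, 8.23 and 7.68 in CL1-0. All 6 values lay under the 40th percentile, so no fold is given. A difference between the lines was not detectable at these signals.

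AKR7A2, which reduces succinic semialdehyde and aflatoxin dialdehyde, was bright in both lines. Its probe set 202139_at read 615, 521 and 509 signal units in CL1-5 and 603, 571 and 438 in CL1-0. Its probe set 214259_s_at read 446, 383 and 364 in CL1-5 and 406, 353 and 322 in CL1-0. The lines overlapped on both. The log2 fold changes were 0.04 (SE 0.14) and 0.14 (SE 0.12), with adjusted p of 0.87 and 0.40 by limma, and the first minus the second was -0.10 (exact permutation p = 0.3).

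Repeat 3 of both lines stood apart from repeats 1 and 2 in RNA quality, with ACTB ratios of 0.91 in CL1-5 and 1.17 in CL1-0, against 0.31 and 0.40 in CL1-5 and 0.53 and 0.44 in CL1-0 for repeats 1 and 2. On 5 of the 5 AKR1C probe sets with decreases of at least 2-fold, the difference between the lines was smallest in repeat 3, and on 5 of 5 the brightest CL1-0 array was repeat 1. For AKR1C3 the log2 difference was -2.05 in repeat 1, -1.40 in repeat 2 and -1.06 in repeat 3. For AKR1C1 on 204151_x_at it was -2.69, -2.39 and -1.97, and for AKR1C2 on 209699_x_at -2.59, -2.33 and -1.86. AKR1C1 on 216594_x_at kept this order at -1.99, -1.71 and -1.66, with repeats 2 and 3 alike. AKR1C2 on 211653_x_at departed from it, with -2.16, -2.41 and -2.11, repeats 1 and 3 being alike. All were negative, so the direction was the same within each repeat number, and the part of RNA quality in their size was not tested. The 5 probe sets passed the test in repeats 1 and 2 alone and with the repeat number as a block.

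**Figure D3:**
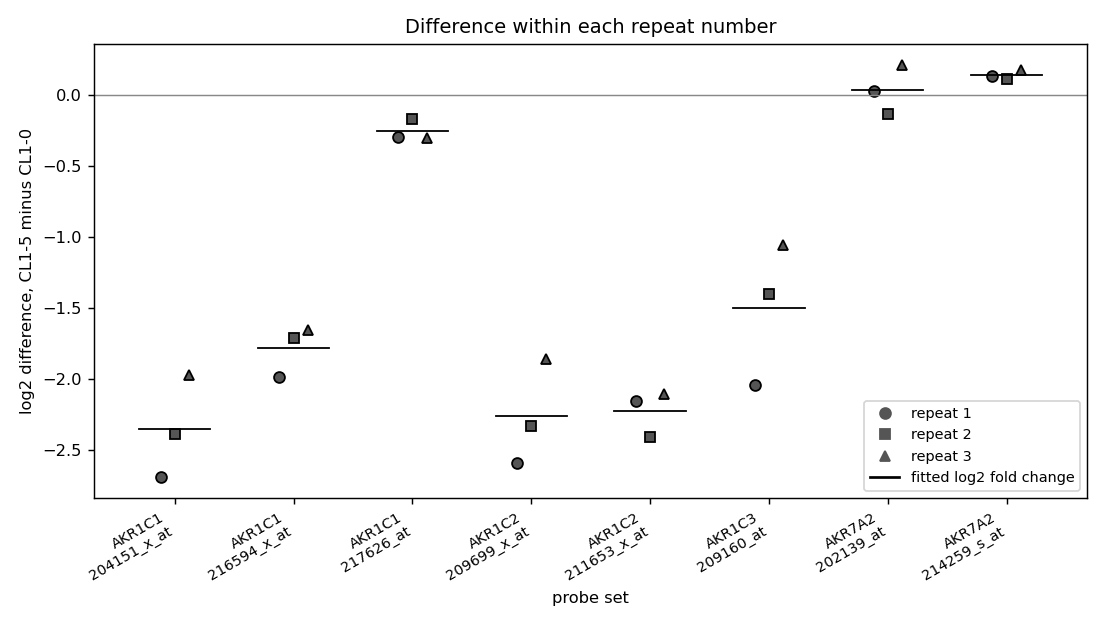
Log2 difference of CL1-5 minus CL1-0 within each repeat number for the 8 tested probe sets, with the fitted log2 fold change as a bar. The AKR1C3 values run from -2.05 in repeat 1 to -1.06 in repeat 3, and those of AKR7A2 lie on both sides of 0 or close above it.

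Genes with the pattern most like that of AKR1C1 on 204151_x_at were found by the Euclidean distance between log2 values centred over the 6 arrays, with 1 probe set for each of 14827 other genes. AKR1C2 on 209699_x_at was the nearest, at a distance of 0.20. The next were the protein kinase C gene PRKCB (0.22), the antisense RNA SNTG2-AS1 (0.24), the adaptor gene SKAP2 (0.27) and the pseudogene ZNF271P (0.31). The log2 fold changes were -2.43 for PRKCB, -2.38 for SKAP2 and -2.47 for ZNF271P. In CL1-5 PRKCB and ZNF271P averaged 24.0 and 28.1 signal units, not far above the 40th percentile. SNTG2-AS1 was at or under the 40th percentile on every CL1-5 array, with a mean of 14.8 signal units in CL1-5 and 100 in CL1-0, so it was at least 3.96-fold lower and its distance rests on values at background. Of the other genes, 310 were nearer than AKR1C3, which lay at 1.07. The other AKR1C2 probe set, 211653_x_at, lay at 0.51, with 46 genes nearer. The AKR1C1 probe sets 216594_x_at and 217626_at lay at 0.75 and 2.60, with 143 and 4515 genes nearer. Both 204151_x_at and 209699_x_at carry the suffix x, and how much of their likeness is shared signal was not tested. All these points share the same 6 arrays.

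Of 10 other genes of the superfamily, 7 had a probe set, 5 were tested, 1 was higher in CL1-5 and 0 were lower. With 1 probe set per gene, taken from the same test, 22.2% of all genes were higher and 26.9% lower. The gene that rose was AKR1E2, the coding neighbour of AKR1C1 and a reductase of anhydrofructose. Its brightest probe set, 223856_at, read 161, 187 and 152 signal units in CL1-5, against 120.4, 120.1 and 128 in CL1-0, with no overlap (log2 fold change 0.42, SE 0.11, adjusted p = 0.015 by limma). On 1555220_a_at it read 239, 204 and 146 in CL1-5 and 99.5, 79.9 and 61.6 in CL1-0 (1.22, SE 0.22, adjusted p = 0.0024), while 1559982_s_at, near the 40th percentile, did not pass (-0.05, SE 0.11). AKR1E2 thus lay on the other side of 0 from its AKR1C neighbours.

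The other superfamily genes did not pass. AKR7A3, the paralog of AKR7A2, was read by 2 probe sets with the suffix x, at log2 fold changes of -0.10 (SE 0.12) and 0.05 (SE 0.10). The beta subunits of voltage-gated potassium channels, which have the same fold, had values of 0.17 (KCNAB1, SE 0.12), -0.05 (KCNAB2, SE 0.12) and -0.23 (KCNAB3, SE 0.13). AKR1C4, the liver form of the AKR1C enzymes, averaged 6.49 ± 0.49 signal units in CL1-5 and 7.68 ± 1.15 in CL1-0 (SD, n = 3 each), and AKR1D1, the steroid reductase of bile acid synthesis, 4.78 ± 0.20 in CL1-5 and 5.31 ± 0.67 in CL1-0. Both lay under the 40th percentile on every array.

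Regulators of NRF2, the factor that induces AKR1B10 and the AKR1C genes, were 3 higher and 3 lower of 8 tested. Of all genes, 22.2% were higher and 26.9% lower. The median log2 fold change of the regulators was -0.15, beside -0.03 over all genes. NFE2L2, which encodes NRF2, read 1325, 1328 and 1380 signal units in CL1-5, against 2867, 2857 and 3130 in CL1-0 (-1.13, SE 0.07, adjusted p = 7.4e-06 by limma). BACH1, a repressor that competes for the same sites, read 1001, 1252 and 1056 in CL1-5 and 450, 444 and 446 in CL1-0 (1.28, SE 0.10). NFE2L1, a relative of NFE2L2, rose by 0.87 (SE 0.07) and SQSTM1, an autophagy receptor that binds KEAP1, by 0.44 (SE 0.08). KEAP1, the adaptor that marks NRF2 for breakdown, fell by 0.26 (SE 0.09), and the small MAF partner MAFG fell by 0.89 (SE 0.28). The ubiquitin ligase scaffold CUL3 (-0.20, SE 0.08) and MAFF (-0.11, SE 0.07) did not pass. With the repeat number as a block CUL3 was called lower (adjusted p = 0.0066).

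Of 25 tested NRF2 targets outside the family, 17 were lower in CL1-5, 4 higher and 4 not called, with a median of -0.82. Over all genes, 26.9% were lower and 22.2% higher, with a median of -0.03. With the repeat number as a block 19 of the 25 were lower, the iron store FTL (-0.14) and the epoxide hydrolase EPHX1 (-0.42) being added. The block also raised the calls over all probe sets, from 8316 to 10999 lower and from 6686 to 8719 higher. The iron-binding nuclear protein gene PIR had the largest decrease of the list, with 237, 218 and 228 signal units in CL1-5 and 2340, 2247 and 2170 in CL1-0 (-3.27, SE 0.08). ABCC2, an export pump for conjugates, fell by 3.13 (SE 0.13). GSR, which regenerates reduced glutathione, had a log2 fold change of -2.66 (SE 0.24). ME1, a source of NADPH, was at least 16.6-fold higher in CL1-5, CL1-0 lying at or under the 40th percentile on every array. The AKR1C genes thus fell beside most of these targets, and whether NRF2 has a part in either was not tested.

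Carbonyl and hydroxysteroid reductases of the short-chain family, which overlap the aldo-keto reductases in substrates, were 10 higher and 7 lower of 22 tested, with a median of 0.04. The shares over all genes were 22.2% higher and 26.9% lower. With the repeat number as a block 9 of the 22 were lower, the carbonyl reductases CBR1 (-0.46) and CBR4 (-0.24) being added. RDH10, which oxidises retinol to retinaldehyde, read 181.0, 181.4 and 221 signal units in CL1-5 and 2691, 2720 and 3257 in CL1-0 (-3.85, SE 0.12). DHRS3, which reduces retinaldehyde, rose by 2.33 (SE 0.17) and DHRS2, a carbonyl reductase, by 1.88 (SE 0.19). HSD11B1, which regenerates cortisol, was at least 3.57-fold higher.

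**Figure D4:**
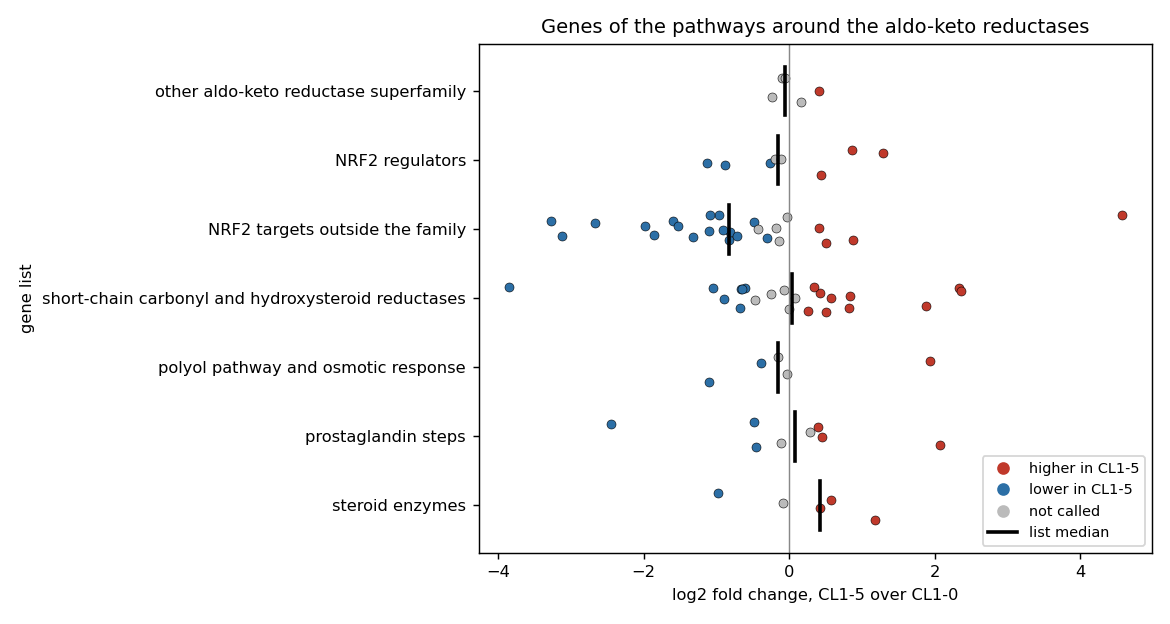
Log2 fold change of CL1-5 over CL1-0 for the tested genes of 7 lists, 1 point per gene, coloured by its call, with a bar at the list's median. The NRF2 targets outside the family have a median of -0.82, and the other medians lie between -0.15 and 0.43.

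AKR1B1 is aldose reductase, the first enzyme of the polyol pathway and a target of the osmotic factor NFAT5, and though it was not analysed here, 5 genes around it were tested. NFAT5 fell by 1.10 (SE 0.07) and the inositol transporter SLC5A3 by 0.39 (SE 0.13), while the taurine transporter SLC6A6 rose by 1.93 (SE 0.09). The betaine transporter SLC6A12 (-0.15, SE 0.12) and the fructokinase gene KHK (-0.02, SE 0.10) did not pass.

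Among 8 tested genes of prostaglandin synthesis and breakdown, 3 were higher and 3 lower in CL1-5, beside 22.2% and 26.9% of all genes. The phospholipase PLA2G4A, which frees arachidonic acid, was at least 2.82-fold lower, and the cyclooxygenase PTGS2 at least 2.79-fold higher. The prostaglandin E synthase gene PTGES3 fell by 0.49 (SE 0.05) and the prostaglandin D synthase gene PTGDS by 0.46 (SE 0.10).

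Among 5 tested genes of other steroid enzymes, 3 were higher and 1 lower, beside 22.2% and 26.9% of all genes. CYP11A1, which makes pregnenolone from cholesterol, was at least 1.94-fold higher at signals of 36.5, 46.9 and 53.1 in CL1-5. The sulfatase STS rose by 0.58 (SE 0.16) and the reductase SRD5A1 by 0.43 (SE 0.11), while the sulfotransferase SULT2B1 fell by 0.98 (SE 0.17).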

How the data were processed

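Total RNA of CL1-5 and CL1-0 was measured on 3 one-colour Affymetrix arrays per line. As deposited, each value is the linear intensity of 1 probe set. The signals were made with MAS5, per the submitters' processing notes. The sources used here give neither its version nor its scaling. No detection calls were used. Of 54675 probe sets, 41091 had 1 gene symbol in the platform annotation, 1801 several and 11721 none, and 62 were controls. Of these, 41037 were matched by gene identifier to RefSeq (GRCh38.p14) for current symbols. Coordinates are those of RefSeq.

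The fits used log2(signal + 6.85). The added constant, the 10th percentile over the 6 arrays, understates the change of dim genes. Probe sets above the 40th percentile of their array on at least 3 arrays were tested with limma 3.58.1 under R 4.3.3 (lmFit, eBayes with a trend), adjusted over all 33777. The median standard error was 0.12. A listed gene was represented by its brightest tested probe set, without the suffix x where another passed. If no array of 1 line exceeded the 40th percentile, dim values were raised to it and the fold is a lower bound. Named were all member probe sets, all genes of the superfamily, NRF2 regulator and polyol lists (of which AKR1B15, AKR1C8, AKR7L, MAFK and SORD have no probe set named in the annotation used here), up to 4 called genes of each other list and the 5 nearest genes. The members and lists were chosen with earlier results of these data known. On simulated data, with 200 of 33777 probe sets changed, the test found 14% of changes of 0.5 on the log2 scale, 70% of changes of 1, 96% of changes of 2 and 100% of changes of 4, and made 5 false calls. The simulated noise was independent between arrays, and in the real data 44.4% of probe sets were called. These rates therefore need not hold for the real comparison.

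After each line's mean was subtracted, the CL1-5 and CL1-0 arrays of repeats 1, 2 and 3 correlated at 0.52, 0.43 and 0.72, and the 3 values depend on one another. The labels do not say that a number marks a shared day, but all 3 correlations exceed 0.1. A fit with the repeat number as a block, which treats same-numbered arrays as pairs, was therefore run as an alternative. The main comparison and the exact permutation tests are unpaired and do not use this pairing. The blocked value is given where it changes a call. Alternatives were the constant, the filter, quantile normalization, no trend, array weights, the block, leaving out each array, repeats 1 and 2 alone, repeat 3 alone, 1 probe set per gene and a threshold of 0.01.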

Additional observations from a re-analysis of the deposited data

How the results depend on the processing

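The AKR1C1 probe sets 204151_x_at and 216594_x_at, both AKR1C2 probe sets with the suffix x and AKR1C3 were lower in all alternatives that included them. They passed in every one of these alternatives that gives a test. Across these, AKR1C1 ranged from -2.54 to -1.97 and from -1.87 to -1.66, AKR1C2 from -2.46 to -1.86 and from -2.40 to -2.09, and AKR1C3 from -1.72 to -1.06. The alternative with 1 probe set per gene did not include 204151_x_at, 216594_x_at or 211653_x_at. In it AKR1C1 was represented by 217626_at, at a log2 fold change of -0.26. The 1 AKR1C call that was lost was that of 217626_at, with no filter, in repeats 1 and 2 alone (adjusted p = 0.14), at a threshold of 0.01 and without any 1 array. AKR7A2 on 202139_at, not called in any setting, turned negative with array weights (-0.091), in repeats 1 and 2 alone (-0.053), without CL1-5 repeat 1 (-0.049, also with the filter on 2 arrays) and without CL1-0 repeat 3 (-0.10, also with that filter), and ranged from -0.10 to 0.125 without 1 array. Repeat 3 alone gave -1.97 for AKR1C1 on 204151_x_at, -1.86 for AKR1C2 on 209699_x_at and -1.06 for AKR1C3. With 1 probe set per gene, fewer probe sets are tested by construction, and 3 aldo-keto reductase probe sets were lower, with 4214 genes lower and 3458 higher in all, against 6, 8316 and 6686 probe sets. Leaving out 1 array gave 5 member probe sets lower and 0 higher throughout, and between 6449 and 8524 lower and between 4827 and 6525 higher over all probe sets. With the repeat number as a block 6 member probe sets were lower and 0 higher, with 10999 lower and 8719 higher in all, and no call of a member changed. Among the listed genes the block added the calls of CUL3, FTL, EPHX1, CBR1 and CBR4 given above and that of NAPSA (adjusted p = 0.045), and it changed no other call. A dim signal limits AKR1B10 and the 4 dim AKR1C probe sets, whose transcripts could differ without showing it here.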
